A study of Mus musculus with 6 samples.

Results

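Messenger RNA of 37 DNA repair genes was compared between MTC, a mouse gastric adenocarcinoma cell line, and MTC-R, the line raised from it under paclitaxel (PTX). The genes were taken by name from a list of homologous recombination, Fanconi, damage kinase, single-strand break repair and mismatch repair factors, and all 37 were found among the 21959 genes of the count table. The sample labels call the lines MPC and MPC-PTX. Each line was sequenced as 3 libraries, all of them carry batch 1 in the labels, and nothing says whether the 3 replicates were separate cultures, so p-values measure the spread between these libraries, which may be technical. Both lines carry the genotype CDH1-/-;Trp53-/-. MTC is 1 clone from a subcutaneous tumour that grew in BALB/c nude mice from gastric organoids of a C57BL/6J mouse with floxed Trp53 and Cdh1 and Mist1-CreER. MTC-R went through over 30 cycles of PTX and was then also taken as 1 clone, whereas MTC is labelled as the control, so PTX exposure, resistance and the choice of a clone cannot be told apart. Whatever is shared by the lines, the loss of p53 and E-cadherin included, has no control in these data.

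Homologous recombination repairs a broken chromosome by copying an intact sister. Broken ends are trimmed to single strands, BRCA1, BARD1, PALB2 and BRCA2 prepare them for strand exchange, RAD51B, RAD51C, RAD51D, XRCC2 and XRCC3 form complexes that assist it, and RAD54 and BLM work on the joined molecules. The Fanconi pathway opens DNA crosslinks: a core complex ubiquitinates FANCD2 and FANCI, and the repair is then handed to recombination. ATM and ATR are the kinases that sense breaks and stalled forks, CHK1 and CHK2 carry their signal, PARP1, PARP2, XRCC1 and the ligases close single-strand breaks, and MSH6 and PMS2 belong to the complexes that remove mismatched bases. PTX, by contrast, stabilises microtubules. Many genes of these pathways are transcribed mainly in dividing cells.

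The deposited values were raw read counts. Totals ran from 16574580 to 23148182 counts a library, with between 13897 and 14295 genes detected. Levels are given as CPM, read counts divided by the size of the library (scaled by TMM) and expressed on a common scale, and differences are log2 fold changes of MTC-R against MTC with their standard error (SE), from the quasi-likelihood test of edgeR over 11795 genes that passed a filter on low counts. Adjusted p-values are by Benjamini-Hochberg over all of these genes, and a gene was called where the adjusted p was under 0.05. As a check of the lines, Cdh1 stood at 132 to 136 CPM in MTC and 131 to 136 CPM in MTC-R and Trp53 at 3.25 to 5.77 and 5.86 to 6.59 CPM. Counts per gene do not show which exons were lost. Of 12 epithelial markers, 11 were tested and all 11 fell in MTC-R, with a summed level of 9999.6 to 11516 CPM in MTC and 5763 to 5949 CPM in MTC-R, and only Tff1 was at 0. In RNA of whole cultures, fewer cells that express a gene and less RNA per cell cannot be told apart, and the part of this shift in the members' values was not tested. Markers of fibroblasts (8 genes, 8.63 to 10.9 CPM in sum over the libraries of both lines), leukocytes (8 genes, 9.74 to 12.7 CPM, Ncr1 at 0) and endothelium (6 genes, 3.07 to 4.83 CPM) were near 0. The MTC libraries differed among themselves. In MTC replicate 3, the deviation of a gene from its line's mean went with transcript GC content (Spearman correlation -0.58 across 11776 genes) and with its length (0.47). The values were 0.47 and -0.43 in MTC replicate 1. In MTC-R replicates 1 and 3 the correlation with GC content was 0.27 and -0.27. The median absolute deviation was 0.15 in MTC replicate 3, 0.14 in MTC replicate 1 and 0.07 in MTC replicate 2. The biological coefficient of variation was 17.9% in MTC and 3.01% in MTC-R.

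All 37 repair genes passed the filter, and their counts per library ran from 62 for Rad51b to 4946 for Msh6. In MTC-R 9 of the 37 rose and 0 fell, where 14.1% of all tested genes were called higher and 15.6% lower. The 9 were Bard1, Rad51b, Rad51c, Rad51d, Rad54l, Blm, Fanca, Fancf and Lig3. Beside the 0 lower calls of edgeR, 3 members with a negative difference (Xrcc3, Fancc and Chek2) had an unadjusted p under 0.05, and DESeq2 called 7 members higher and 0 lower. No member reached an absolute log2 fold change of 1, a size that 7.73% of all tested genes passed with a call. The fold change was positive in 32 of 37 members and in 55.2% of all genes, and its median was 0.26 over the members (quartiles 0.10 and 0.35) and 0.04 over all genes (quartiles -0.19 and 0.27). In 14 members each MTC-R library lay above each MTC library, and in 3 below, where 24.2% and 22.7% of all tested genes did so. Taken library by library, the median member was 0.23, 0.28 and 0.25 above the MTC mean on the log2 scale in the MTC-R libraries. The median of all tested genes was 0.06, 0.05 and 0.05 there. In the MTC libraries the median member was between -0.04 and 0.03, near 0 because the MTC mean was the reference.

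**Figure D1:**
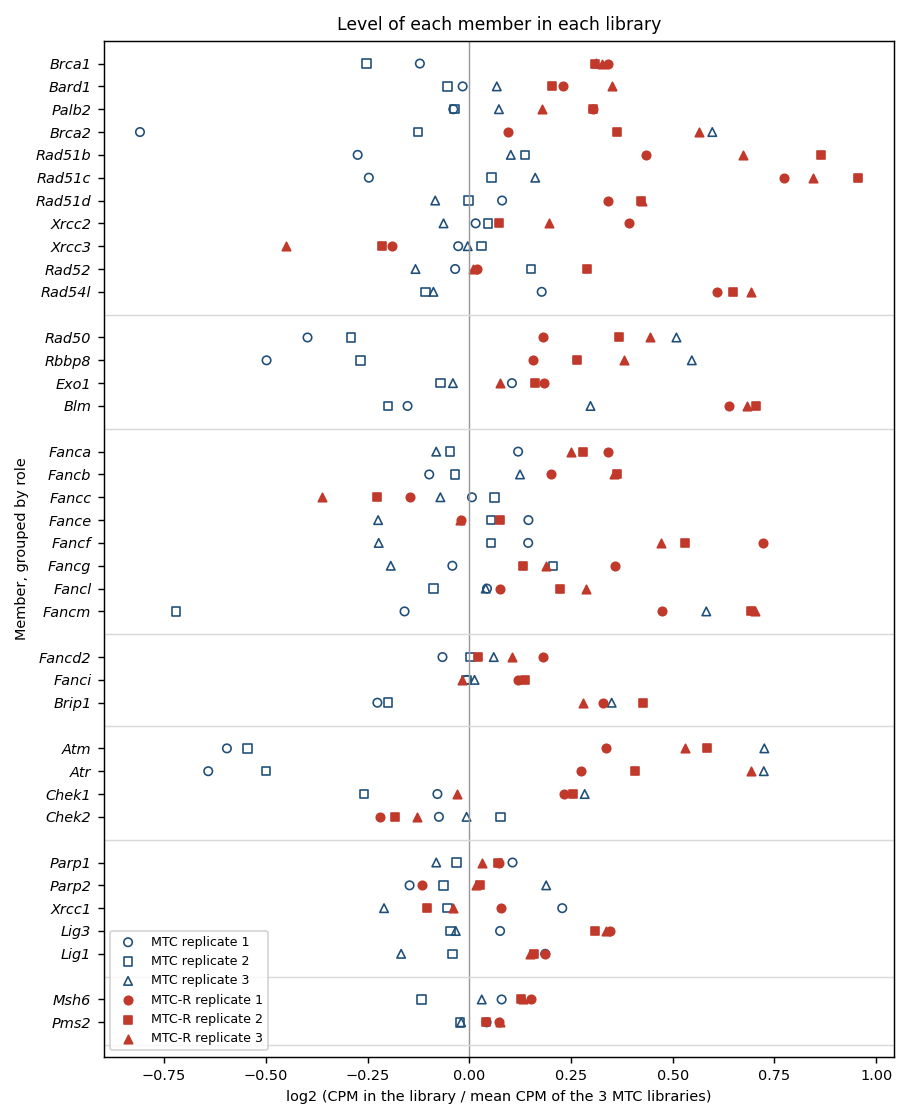
Level of each of the 37 repair genes in each library, as the log2 ratio of its CPM to the mean CPM of the 3 MTC libraries (horizontal axis), with genes grouped by role (vertical axis), open blue symbols for MTC and filled red symbols for MTC-R. The red symbols of Rad51c, Rad54l, Blm and Fancf stand clear of the blue ones, whereas the MTC replicate 3 triangle of Atm, Atr, Brca2, Rad50 and Rbbp8 lies at or above the MTC-R symbols.

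The upstream sequences of 3 members are shown, because they hold the letters most often met in these genes and overlap no annotated exon: Rad51b and Fanca, which rose, and Xrcc3, which had the lowest fold change of the 37. RefSeq promoters (GRCm38.p6) were found for 31 of 37 members, 8 of the 9 called ones among them, and the 250 bases before the start of transcription were searched on both strands for CCAAT, the box bound by NF-Y, for the E2F-type letters TTTGGCGC, TTTCCCGC and TTTCGCGC, and for TTTGAA and TTCGAA, of the type called a cell cycle homology region. Each runs 5′ to 3′ on the gene's strand up to the base before the start. Capitals mark CCAAT or its reverse complement ATTGG, the same box on the other strand, which were the only matches in them. Rad51b lies at chr12:79297032-79297281 on the plus strand, Fanca at chr8:123318577-123318826 on the minus strand and Xrcc3 at chr12:111813880-111814129 on the minus strand.
Rad51b: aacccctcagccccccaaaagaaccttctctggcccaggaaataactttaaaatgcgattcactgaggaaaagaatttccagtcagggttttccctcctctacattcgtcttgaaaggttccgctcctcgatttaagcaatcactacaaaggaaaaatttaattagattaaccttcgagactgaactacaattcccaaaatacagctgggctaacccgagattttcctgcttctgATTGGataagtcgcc
Fanca: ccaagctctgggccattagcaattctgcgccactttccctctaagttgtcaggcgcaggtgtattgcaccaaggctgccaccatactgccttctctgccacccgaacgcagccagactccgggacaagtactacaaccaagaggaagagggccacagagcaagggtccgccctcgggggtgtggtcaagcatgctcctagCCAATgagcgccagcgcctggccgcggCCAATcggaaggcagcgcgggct
Xrcc3: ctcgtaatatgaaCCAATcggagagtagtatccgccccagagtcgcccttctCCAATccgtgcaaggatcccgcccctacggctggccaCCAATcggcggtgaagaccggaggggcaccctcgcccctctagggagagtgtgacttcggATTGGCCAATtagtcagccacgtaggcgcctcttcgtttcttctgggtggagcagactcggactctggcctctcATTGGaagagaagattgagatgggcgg
The first base of the match lay 15 bases before the start in Rad51b, and 50 and 23 bases before it in Fanca. Xrcc3 held 6 matches. CCAAT was present in 17 of the 31 matched members (54.8%), in 5 of the 8 called ones, in 41.2% of 9414 tested genes with an entry and in 33.9% of all 32851 promoters. An E2F-type match was present in 4 of 31 (Bard1, Brca2, Fancg and Chek2, all with TTTCCCGC), or 12.9%, in 3.49% of the tested genes and in 1.53% of all promoters. TTTGAA or TTCGAA was present in 2 of 31 (Bard1 and Atr), or 6.45%, in 14.7% of the tested genes and in 17.1% of all promoters. A gene with several starts was counted where any of its windows matched. CCAAT and the E2F-type letters occur in members that rose and in members with negative values, whereas both members with TTTGAA or TTCGAA had positive values. A match is not evidence of binding.

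Of the 11 recombination factors 5 rose, and 3 of them (Rad51b, Rad51c and Rad51d) encode subunits of 1 complex, BCDX2. Rad51c had the largest difference of all 37 genes. It stood at 6.69, 8.25 and 8.89 CPM in MTC and at 13.6, 15.4 and 14.3 CPM in MTC-R. All of its MTC-R libraries lay above all MTC libraries, a 1.81-fold difference (log2 fold change 0.86, SE 0.13, edgeR adjusted p = 0.0032). Rad51b, its partner in the BCDX2 complex, was the lowest in counts, with 3.29, 4.38 and 4.28 CPM in MTC and 5.38, 7.26 and 6.36 CPM in MTC-R. Its libraries did not overlap either (0.66, SE 0.18, edgeR adjusted p = 0.0273). Rad51d was more abundant, at 40.0, 37.8 and 35.7 CPM in MTC and 47.9, 50.7 and 50.8 CPM in MTC-R (0.40, SE 0.08, edgeR adjusted p = 0.0083). The fourth gene of that complex, Xrcc2, had 19.3 to 20.8 CPM in MTC and 21.2 to 26.5 CPM in MTC-R, also without overlap, but missed the threshold (0.23, SE 0.11, edgeR adjusted p = 0.149). Xrcc3, which pairs with RAD51C in a separate complex, went the other way: it had 12.4 to 12.9 CPM in MTC and 9.27 to 11.1 CPM in MTC-R, with each MTC-R library below each MTC library and no call (-0.28, SE 0.11, edgeR adjusted p = 0.0936). Per kilobase of exon, mean levels in MTC-R were 13.4 CPM for Rad51d, 4.53 for Xrcc2, 3.79 for Xrcc3, 3.29 for Rad51c and 1.69 for Rad51b.

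Rad54l, which encodes a motor protein of strand exchange, had 25.1, 20.6 and 20.9 CPM in MTC and 33.8, 34.7 and 35.8 CPM in MTC-R, so the lines stood apart (log2 fold change 0.65, SE 0.10, edgeR adjusted p = 0.0033). Bard1, the partner that BRCA1 needs for its ubiquitin ligase, had 52.8, 51.5 and 56.0 CPM in MTC and 62.6, 61.4 and 68.1 CPM in MTC-R. That difference was small (0.26, SE 0.08, edgeR adjusted p = 0.0371), and 10 of 13 alternative settings ended the call. Brca1 itself had 54.6, 49.8 and 73.7 CPM in MTC and 75.1, 73.6 and 74.4 CPM in MTC-R, where the third MTC library overlapped the MTC-R range (0.33, SE 0.14, edgeR adjusted p = 0.128). Palb2, the link between BRCA1 and BRCA2, was higher in each MTC-R library (7.60 to 8.30 CPM) than in each MTC library (6.54 to 7.06 CPM) and was not called (0.26, SE 0.11, edgeR adjusted p = 0.112). Brca2, a central mediator of recombination, spread over 9.40, 15.1 and 24.9 CPM in MTC, a range that held all 3 MTC-R values (17.6, 21.2 and 24.4 CPM) (0.35, SE 0.33, edgeR adjusted p = 0.470). Rad52, an annealing factor, had 8.89 to 10.8 CPM in MTC and 9.80 to 11.9 CPM in MTC-R.

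Of the 4 genes of end resection and joint molecules, Blm rose. This helicase dissolves double Holliday junctions, and its gene stood at 15.5, 15.0 and 21.2 CPM in MTC and at 26.8, 28.1 and 27.7 CPM in MTC-R. The highest MTC library was still below the lowest MTC-R library, with a 1.60-fold difference (log2 fold change 0.67, SE 0.14, edgeR adjusted p = 0.0111). Rad50, the ATPase of the MRN complex, had 27.5, 29.6 and 51.6 CPM in MTC against 41.1 to 49.3 CPM in MTC-R, and Rbbp8, whose product CtIP starts resection, had 19.8, 23.2 and 40.8 CPM against 31.1 to 36.4 CPM. In both genes the third MTC library exceeded every MTC-R library. Exo1, a nuclease of resection and of mismatch repair, had 39.7 to 44.8 CPM in MTC and 44.0 to 47.4 CPM in MTC-R. None of these 3 was called (edgeR adjusted p = 0.341, 0.479 and 0.228).

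In the Fanconi core complex 2 of 8 genes rose. Fancf, an adaptor of the complex, stood at 4.83, 4.54 and 3.75 CPM in MTC and at 7.22, 6.31 and 6.06 CPM in MTC-R (log2 fold change 0.58, SE 0.15, edgeR adjusted p = 0.0243). Fanca, whose product forms a subcomplex with FANCG, stood at 76.4, 68.1 and 66.4 CPM in MTC and at 89.0, 85.3 and 83.6 CPM in MTC-R (0.29, SE 0.08, edgeR adjusted p = 0.0281). In both genes the lines did not overlap. Fancb (0.31, edgeR adjusted p = 0.0695) and Fancl, the ligase subunit (0.20, edgeR adjusted p = 0.207), were also higher in each MTC-R library without a call. Fancc was lower in each of them, with 19.99 to 21.9 CPM in MTC and 16.3 to 19.0 CPM in MTC-R (-0.24, SE 0.09, edgeR adjusted p = 0.0967). Fancm, the translocase that brings the complex to DNA, had 9.51, 6.44 and 15.9 CPM in MTC and 14.7, 17.2 and 17.3 CPM in MTC-R (0.62, SE 0.30, edgeR adjusted p = 0.169). Fancg and Fance overlapped between the lines, with log2 fold changes of 0.23 and 0.01. The 8 genes of this complex thus held both positive and negative values.

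The complex acts on the products of Fancd2 and Fanci. Fancd2 had 42.7 to 46.6 CPM in MTC and 45.4 to 50.6 CPM in MTC-R (log2 fold change 0.10, SE 0.08), and Fanci had 21.1 to 21.4 CPM and 20.97 to 23.4 CPM (0.08, SE 0.08). Brip1, a helicase that binds BRCA1, had 17.4, 17.7 and 25.9 CPM in MTC and 24.7 to 27.3 CPM in MTC-R (0.35, SE 0.16). None of the 3 was called (edgeR adjusted p = 0.3505, 0.495 and 0.155).

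None of the 4 damage kinases was called. Atm had 10.3, 10.7 and 25.8 CPM in MTC and 19.6, 23.4 and 22.5 CPM in MTC-R, so that the third MTC library was above and the other two were below all of MTC-R (log2 fold change 0.48, SE 0.35, edgeR adjusted p = 0.346). Atr had the same layout, with 8.13, 8.97 and 20.9 CPM in MTC and 15.3, 16.8 and 20.5 CPM in MTC-R (0.46, SE 0.36, edgeR adjusted p = 0.380). Chek1 had 15.5 to 22.5 CPM in MTC and 18.1 to 22.1 CPM in MTC-R (0.16, SE 0.16). Chek2 had 56.4 to 62.7 CPM in MTC and 51.0 to 54.4 CPM in MTC-R, with each MTC-R library lower and no call (-0.18, SE 0.07, edgeR adjusted p = 0.112).

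Among the 5 genes of single-strand break and base excision repair, Lig3 rose. The gene encodes the ligase that works with XRCC1 in the nucleus and alone in mitochondria, and it had 56.6, 52.0 and 52.5 CPM in MTC and 68.2, 66.5 and 67.8 CPM in MTC-R, without overlap (log2 fold change 0.33, SE 0.07, edgeR adjusted p = 0.0107). Its partner Xrcc1 had 45.0 to 61.0 CPM in MTC and 48.4 to 54.9 CPM in MTC-R (-0.02, SE 0.12). Parp1 (0.06, SE 0.07) and Parp2 (-0.02, SE 0.11), the enzymes that mark strand breaks with ADP-ribose, also differed by less than their SE. Lig1, the replicative ligase, had 128 to 164 CPM in MTC and 160 to 164 CPM in MTC-R (0.17, SE 0.09, edgeR adjusted p = 0.228). Msh6, the mismatch-binding subunit, was higher in each MTC-R library (208 to 211 CPM) than in each MTC library (175 to 201 CPM) with a small difference (0.14, SE 0.07, edgeR adjusted p = 0.170), and Pms2 had 32.7 to 34.3 CPM and 34.3 to 35.1 CPM (0.06, SE 0.07). Per kilobase of exon, Msh6 (48.1 CPM), Lig1 (37.8) and Parp1 (31.6) had the highest mean levels of the 37 in MTC-R, and Atr (0.74) had the lowest. Exon length here joins all annotated exons of a gene, for Atr 23629 bases against 8102 in its longest transcript. The ranks depend on this choice of length.

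**Figure D2:**
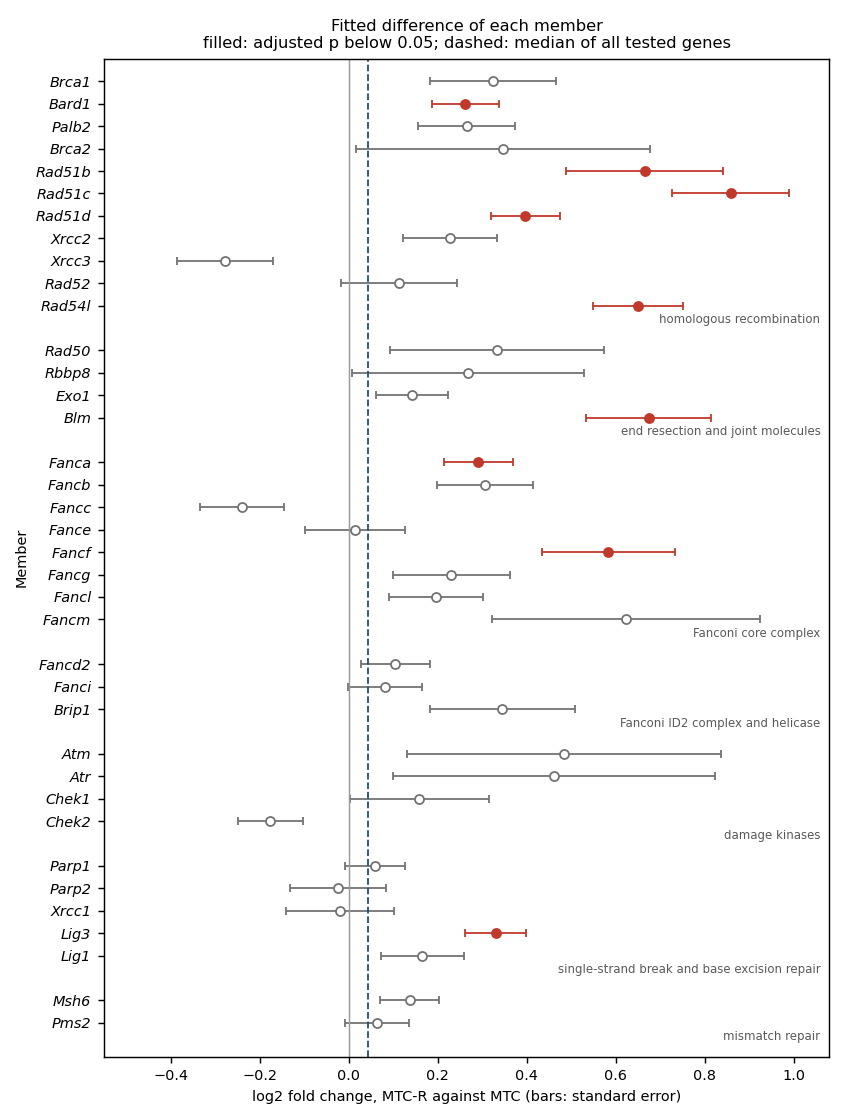
Log2 fold change of MTC-R against MTC (horizontal axis) for each of the 37 repair genes (vertical axis), with bars of 1 SE, filled red points for an edgeR adjusted p under 0.05 and a dashed line at the median of all tested genes. The 9 filled points lie between 0.26 and 0.86, and the widest bars belong to Atr, Atm, Brca2 and Fancm.

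The called members changed with the library left out. Without MTC replicate 3 the 9 calls stayed and further members were called. Across the 37 genes, how far MTC replicate 3 exceeded MTC replicate 1 (log2 ratio of CPM) had rank correlations (Spearman) of -0.81 with transcript GC content and 0.51 with transcript length, beside -0.56 and 0.47 over 11776 genes, and all of these points share the same pair of libraries. The members had a median transcript length of 3944 bases and a GC content of 46.6%, against 3413 bases and 49.8% over all tested genes. Against the mean of the other two MTC libraries, MTC replicate 3 was higher by a log2 ratio of 1.30 in Atm (9819 bases, 42.6% GC), 1.29 in Atr, 1.02 in Brca2, 1.00 in Fancm, 0.93 in Rbbp8 and 0.85 in Rad50. Among GC-rich members MTC replicate 3 was lower by a log2 ratio of -0.32 in both Fance and Fancf, but nearly level in Xrcc3 (-0.006, 56.9% GC). Whether this belongs to the cells or to the library was not tested.

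**Figure D3:**
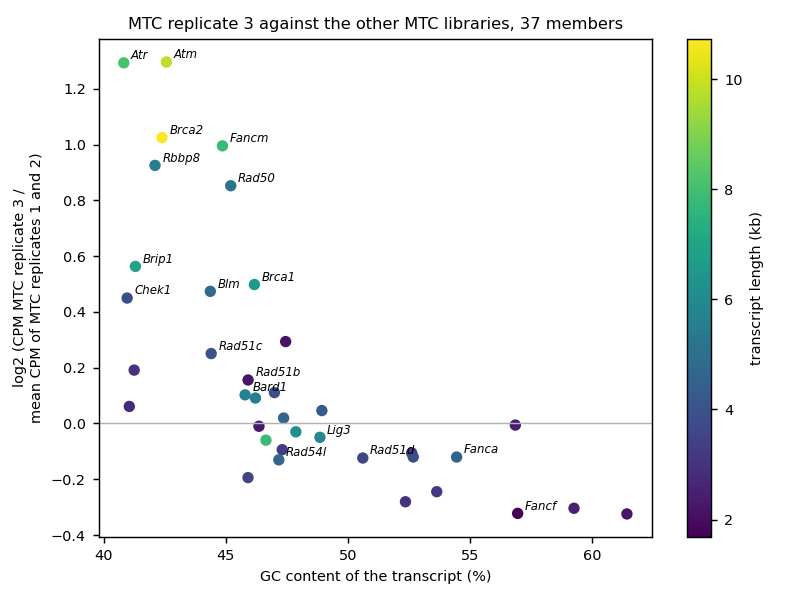
Log2 ratio of the CPM of MTC replicate 3 to the mean CPM of MTC replicates 1 and 2 (vertical axis) against the GC content of the transcript in percent (horizontal axis) for the 37 repair genes, coloured by transcript length in kilobases. The long transcripts of Atm, Atr, Brca2 and Fancm, all under 45% GC, lie near or above a ratio of 1, and Fancf lies at -0.32.

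Without MTC replicate 3, 18 members were called higher and 3 lower, where 25.4% and 27.1% of 11896 tested genes were. That fit leaves MTC with 2 libraries. The 9 genes named above were among the 18. The others were Brca1, Brca2, Rad50, Rbbp8, Fancb, Fancm, Brip1, Atm and Atr. Atm then had a log2 fold change of 1.00 (SE 0.11, edgeR adjusted p = 7.3e-05), Fancm 0.99 (SE 0.16, edgeR adjusted p = 0.0006) and Atr 0.98 (SE 0.15, edgeR adjusted p = 0.0004). Xrcc3 (-0.33, edgeR adjusted p = 0.0418), Fancc (-0.33, edgeR adjusted p = 0.0179) and Chek2 (-0.23, edgeR adjusted p = 0.0238) were the lower ones. Over the 6 fits that left out 1 library, the adjusted p ran from 7.3e-05 to 0.657 for Atm, from 0.0006 to 0.335 for Fancm, from 0.0004 to 0.686 for Atr, from 0.0418 to 0.285 for Xrcc3, from 0.0179 to 0.304 for Fancc and from 0.0238 to 0.321 for Chek2 by edgeR. When each library was instead corrected for GC content and length with all 6 kept, 8 members were called higher and 1, Fancc, lower, beside 18.8% and 22.5% of all genes. Atm then stood at 0.22 (SE 0.12), Atr at 0.22 (SE 0.14) and Brca2 at 0.04 (SE 0.13), none of them called, and the median of the members was 0.13 with that of all genes at -0.01. Bard1 and Lig3 lost the call under this correction and Lig1 gained it (0.18, SE 0.06), just under the threshold. The correction was fitted to deviations from the mean of all 6 libraries. It therefore also removes any difference between the lines that goes with GC content or length, and how much was removed was not tested.

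Rad51c and Rad54l were called in all 13 alternative settings, the 6 fits with 1 library left out included, with log2 fold changes from 0.75 to 0.90 for Rad51c and from 0.56 to 0.75 for Rad54l. Blm was called in all but the fit without MTC-R replicate 2 (edgeR adjusted p = 0.0504). Rad51d lost the call without MTC-R replicate 2 or 3, and Rad51b without MTC replicate 2 or MTC-R replicate 2 or 3. Fancf, Lig3 and Fanca were called in 2 of the 6 fits that left out a library. Fanca also lost the call with DESeq2 (adjusted p = 0.0512) and with at least 10 counts in every sample (edgeR adjusted p = 0.0538), 6 of 13 alternatives in all. The number of members called higher fell to 2 without MTC-R replicate 2, to 3 without MTC-R replicate 3, to 5 without MTC-R replicate 1 and to 4 without MTC replicate 2, and the number over all genes fell with it, to between 803 and 934 from 1668. The median log2 fold change of the members in these fits was 0.28, 0.24, 0.26 and 0.21, beside 0.26 with all libraries. Each fit takes 1 spread per gene over both lines, whose variation differed (17.9% in MTC, 3.01% in MTC-R). The part of this in the lost calls was not tested.

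**Figure D4:**
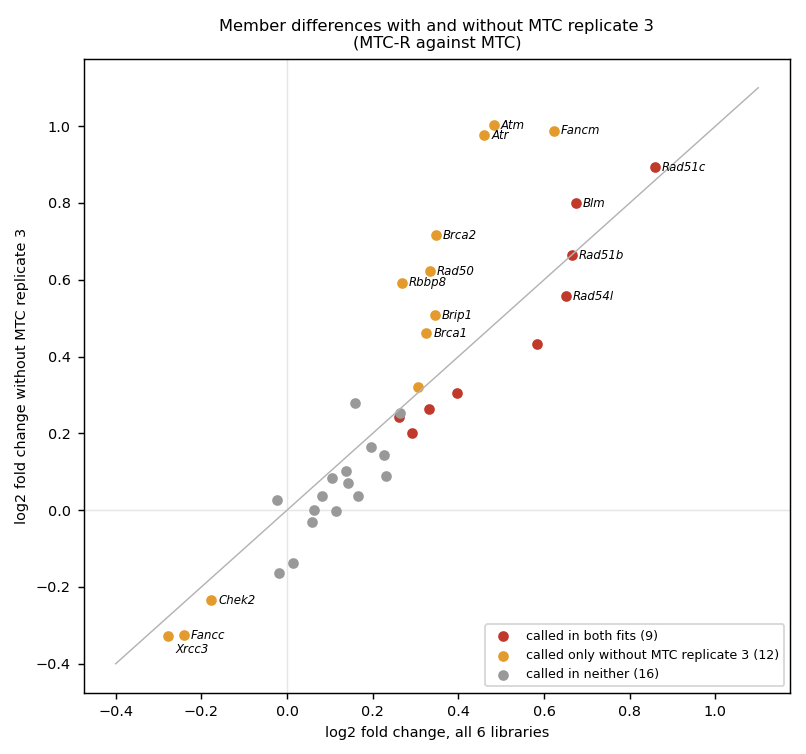
Log2 fold change of MTC-R against MTC for each of the 37 repair genes in the fit of all 6 libraries (horizontal axis) and in the fit without MTC replicate 3 (vertical axis), with the line of equal values in grey. Red points (9) were called in both fits, orange points (12) without MTC replicate 3 only and grey points (16) in neither, and Atm and Atr lie farthest above the line.

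The members lie on 14 chromosomes, 7 of them on chromosome 11 (Brca1, Rad50, Rad51c, Rad51d, Fancl, Brip1 and Lig3). By GENCODE M21 (GRCm38), Rad51c spans positions 87376645 to 87404954 there, Rad51d 82876434 to 82890614 and Lig3 82781108 to 82804274, so that Rad51d and Lig3 lie close together. Rad54l lies on chromosome 4 from 116094264 to 116123690, and Blm on chromosome 7 from 80454733 to 80535119. Genes within 5 Mb served as a local reference. The fold change of a member exceeded the median of its neighbours in 29 of 37 members and in all 9 called ones. The share of all tested genes above their own neighbours was not computed. The 9 were called on these same fold changes, so their count was largely set by the call. Blm (0.67) lay among 52 tested neighbours with a median log2 fold change of 0.02, Rad54l (0.65) among 82 with a median of 0.24, Rad51c (0.86) among 69 with 0.18 and Rad51b (0.66) among 57 with -0.19. Fanca, at 0.29, stood close to its neighbours, which had a median of 0.22 and of which 33 of 84 were called higher. Xrcc2 (0.23) was below a neighbourhood with a median of 0.40, where 29 of 50 genes were called higher, and Xrcc3 (-0.28) lay in one with a median of -0.20, where 22 of 60 were called lower. The part that such regional levels have in the members' values was not tested.

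Some counts cannot be assigned to 1 gene with confidence, since the sources do not say whether the counting used strand. In GENCODE M21, 12 members share exon bases with another gene of the table, and 4 of the called ones are among them. Lig3 shares 1826 bases with Rffl on the opposite strand, and Rffl was also called higher (log2 fold change 0.48, edgeR adjusted p = 0.0171). Rad54l shares 1184 bases with Lrrc41 (0.22, edgeR adjusted p = 0.164), Fanca 920 bases with Zfp276 (0.17, edgeR adjusted p = 0.271) and Fancf 253 bases with Gas2 (-0.07, edgeR adjusted p = 0.790). Fancc shares 185 bases with 2010111I01Rik, which fell (-0.50, edgeR adjusted p = 0.0033). Pms2 shares 394 bases with Gm42421 on its own strand. Rad51b, Rad51c, Rad51d, Blm and Bard1 share none with a gene of the table.

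Repair genes outside the 37 were counted in the same fit. Of 92 tested companion repair genes, 11 rose and 4 fell by edgeR, with a median log2 fold change of 0.09, beside the background of 14.1% and 15.6%. Among 30 other recombination and Fanconi genes, 2 rose and 1 fell: Usp1, which removes ubiquitin from FANCD2 (log2 fold change 0.57, edgeR adjusted p = 0.0130), the helicase gene Helq (0.56, edgeR adjusted p = 0.0023), and Rad54b (-0.69, edgeR adjusted p = 0.0139), the relative of Rad54l, which fell from 8.08 ± 1.22 to 5.02 ± 0.39 CPM (SD, n = 3). Of 16 checkpoint partners 4 rose and 1 fell. Clspn, whose product Claspin links ATR to CHK1, had 0.66 (edgeR adjusted p = 0.0045), Hus1 0.40 (edgeR adjusted p = 0.0085) and Rad1 0.34 (edgeR adjusted p = 0.0197), and H2ax, the histone variant marked at breaks, had -0.43 (edgeR adjusted p = 0.0315). Of 27 excision repair genes 4 rose, led by Polb (0.56, edgeR adjusted p = 0.0110) and Ercc8 (0.38, edgeR adjusted p = 0.0356), and 2 fell, led by Ercc4 (-0.39, edgeR adjusted p = 0.0100). Of 14 end joining genes Lig4 rose (0.85, edgeR adjusted p = 0.0433) and 0 fell. DESeq2 called 2 higher and 0 lower, and the same counts had an unadjusted p under 0.05 by edgeR. With the GC and length correction 4 were called higher and 1 lower. Of 5 other mismatch repair genes 0 were called by edgeR, 1 was higher at an unadjusted p under 0.05 and DESeq2 called 1.

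Of 56 replication and mitosis genes tested, 7 were called higher (12.5%) and 9 lower (16.1%), near the 14.1% and 15.6% over all tested genes. Of 34 DNA replication and S phase genes 7 rose and 0 fell, with a median log2 fold change of 0.11, and their summed level was 4667 to 5966 CPM in MTC and 5567 to 5733 CPM in MTC-R. The largest were Gins3 (0.57, edgeR adjusted p = 0.0034), Rfc1 (0.53, edgeR adjusted p = 0.0277), Ccne1 (0.43, edgeR adjusted p = 0.0457) and Rfc3 (0.41, edgeR adjusted p = 0.0295). DESeq2 gave 6 and 0, and 0 were lower at an unadjusted p under 0.05, but without MTC replicate 3 the counts were 8 and 8. Of 22 G2 and M phase genes 9 fell and 0 rose by edgeR and by DESeq2, 11 were lower and 0 higher at an unadjusted p under 0.05, and 5 rose and 11 fell without MTC replicate 3. Their median was -0.20 and their summed level 3567 to 4322 CPM in MTC and 3483 to 3510 CPM in MTC-R. Cdk1 (-0.57, edgeR adjusted p = 0.0009), Ccnb2 (-0.50, edgeR adjusted p = 0.0092), Kif20a (-0.46, edgeR adjusted p = 0.0068) and Ccnb1 (-0.37, edgeR adjusted p = 0.0043) led them. The part of the cell cycle in the members' values was not tested. Of 17 tested p53 target genes 3 rose and 2 fell in these lines without p53, with Gdf15 (1.83, edgeR adjusted p = 0.0123, at 1.16 CPM in MTC-R), Sesn2 (0.70, edgeR adjusted p = 0.0180), Tnfrsf10b (-0.40, edgeR adjusted p = 0.0109) and Cdkn1a (-0.31, just under the threshold) the largest.

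**Figure D5:**
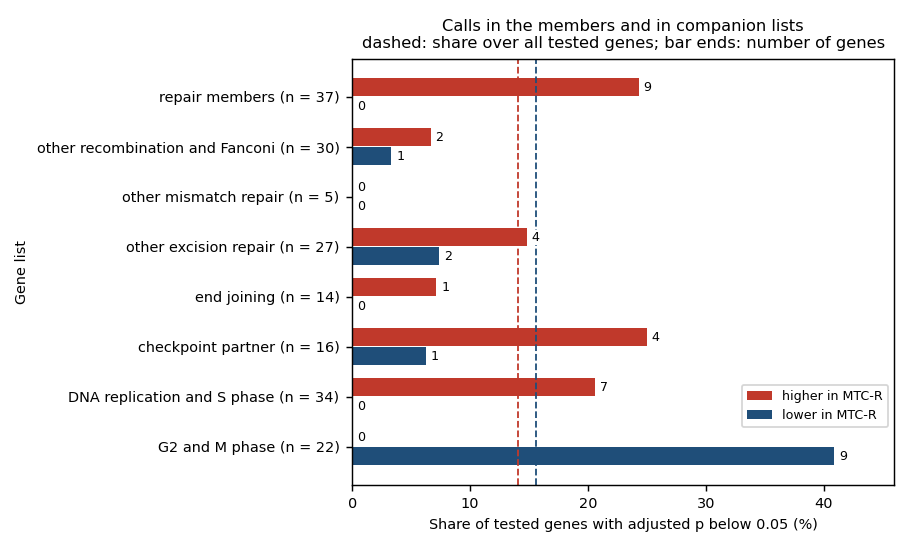
Share of tested genes called higher (red) and lower (blue) in MTC-R, in percent (horizontal axis), for the 37 repair genes and for companion lists (vertical axis), with the number of genes at each bar end and dashed lines at the shares over all tested genes. The repair members show 9 higher and 0 lower calls and the G2 and M phase list shows 0 higher and 9 lower.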

How the data were processed

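RNA of MTC cells (labels: MPC) and MTC-R cells (labels: MPC-PTX) was measured in 3 poly-A selected libraries per line. The authors trimmed reads with fastp (0.22.0 per the labels), aligned them with HISAT2 and deposited raw counts for each gene and library, neither normalized nor pooled. The genome release, annotation, counting tool and use of strand are not given in the sources used here. Each of the 6 sample tables equalled its column of the series table. Groups came from the labels.

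From these counts, TMM factors were computed, genes of low count were removed (filterByExpr, minimum count 10 in a line's libraries), and MTC-R was tested against MTC with edgeR 4.0.16 (glmQLFit, robust, and glmQLFTest; R 4.3.3), with Benjamini-Hochberg adjustment over 11795 genes. The SE is the fold change divided by the square root of the F statistic. For 3 against 3 libraries the smallest p of an exact permutation test (two-sided) is 0.1, and none was used. No pair of libraries of a line held the same counts within sampling noise (chi-square per gene of at least 1.83). The self-test on simulated counts was run first. DESeq2 1.42.0, 2 other scalings, 2 other filters, the replicate number as a block, a loess correction for GC content and length (span 0.3) and leaving out each of 6 libraries were alternatives.

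The members and lists were chosen with earlier results of these data known, MTC replicate 3 included. All 37 members were described, and of each companion list up to 4 called genes with the largest fold change were named. Positions, lengths and GC content are from GENCODE M21, with a record for 21851 of 21959 genes, and promoters from RefSeq (GRCm38.p6), with entries for all members but Rad51d, Xrcc2, Rad50, Rbbp8, Exo1 and Fancd2.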

Additional observations from a re-analysis of the deposited data

How the results depend on the processing

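Of the 37 members, 8 with a value near 0 changed sign in at least 1 of the 13 alternatives. With the GC and length correction, the log2 fold change was -0.085 for Exo1, -0.022 for Fancd2 and -0.061 for Pms2. Fance was -0.023 with DESeq2, -0.023 with its size factors and -0.021 with at least 10 counts in every sample. Parp2 was 0.014 and Xrcc1 0.020 with library size alone. Over the fits that left out 1 library, Fance ran from -0.14 to 0.091, Parp1 from -0.031 to 0.11, Parp2 from -0.093 to 0.027, Rad52 from -0.0011 to 0.19 and Xrcc1 from -0.16 to 0.11. The cause was not tested.

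Leaving out 1 library moved the number of members called higher between 2 and 18 and lower between 0 and 3, of all genes higher between 803 and 3020 and lower between 1077 and 3227, of companion repair genes higher between 3 and 21 and lower between 0 and 14, and of replication and mitosis genes (7 and 9 in the fit of all libraries) higher between 1 and 16 and lower between 4 and 19. The largest counts came without MTC replicate 3, except for higher replication and mitosis genes, which were most without MTC replicate 1. The median of the members ran from 0.21 to 0.28 there, was 0.23 with DESeq2 and with its size factors, 0.30 with library size alone and 0.13 with the GC and length correction, while the median of all genes was 0.01, 0.01, 0.08 and -0.01. Companion repair genes called higher were 18 with library size alone and 17 with the GC and length correction, and called lower 9 with DESeq2, 9 with its size factors and 12 with the correction. One member was called lower with the correction. Replication and mitosis genes called higher were 4 with at least 10 counts in every sample.

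Samples with the same replicate number did not all deviate together (correlations of 0.15, -0.02 and 0.17). The correlation of the deviations with GC content had the same sign in both lines for replicate 1 (0.47 in MTC, 0.27 in MTC-R). It also did for replicate 3 (-0.58 and -0.27), but not for replicate 2 (0.35 and -0.01). Whether the replicate number marks pairs was not tested. The fit with a replicate block called 8 members higher and 0 lower, and 1787 and 1717 of all genes. The members with the fewest counts, Rad51b and Fancf, had 62 to 169 counts a library, and the part of depth in the SE was not tested. The largest SE belonged to Atr, Atm, Brca2 and Fancm (0.36, 0.35, 0.33 and 0.30).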
